A study of Mus musculus with 4 samples.

Results

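The 36 genes described here encode aminoacyl-tRNA synthetases, 20 grouped as cytosolic and 16 grouped as mitochondrial, and were chosen by name from the 33803 gene symbols held in both liver tables. Both kinds of enzyme are encoded in the nucleus, and the genes grouped as mitochondrial carry the suffix 2. The groups follow the names alone, so a gene without the suffix may also supply a mitochondrial enzyme. Total RNA was sequenced from mice with 1 library in each of 4 groups: E11.5 embryos labelled Adar1-/- Mavs-/- and E11.5 embryos labelled Adar1-/-, both of the strain written as C57B16/N, and E15.5 embryonic livers labelled Adar1-/- Mavs-/- and E15.5 embryonic livers labelled Adar1-/-, both of the strain written as C57B6/J. All 4 libraries thus carry the Adar1 deletion by their labels, and none is from a wild-type animal. ADAR1 is an RNA-editing enzyme that turns adenosines of double-stranded RNA into inosines. MAVS passes on the signal of RIG-I and MDA5, the cytoplasmic sensors of foreign RNA. The question put to these genes was how their RNA differs when Mavs is missing in addition to Adar1.

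Each synthetase joins an amino acid to its tRNAs, using ATP, and so supplies translation. Cells that run short of a charged tRNA, or that are stressed in other ways, activate kinases that phosphorylate the initiation factor eIF2, which raises translation of the transcription factor ATF4. ATF4 in turn raises transcription of many cytosolic synthetases, amino acid transporters and amino acid synthesis enzymes. A subset of the cytosolic enzymes is held in the multi-synthetase complex by the scaffold proteins encoded by Aimp1, Aimp2 and Eef1e1.

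ATF4 is known to bind composite C/EBP-ATF elements, whose core TGATGNAA was searched on both strands of the RefSeq promoter windows (GRCm38.p6), from 250 bases before to 50 bases after each annotated start. A window was matched for 27 members, 13 cytosolic and 14 mitochondrial. The core was found in 5 of the 13 cytosolic windows and in 0 of the 14 mitochondrial windows, against 4.51% of all 27025 symbols in the table. The 5 genes were Aars, Gars, Iars, Tars and Yars, the synthetases for alanine, glycine, isoleucine, threonine and tyrosine. Their matches are given here in stretches of the sense strand, since the liver ratios are grouped by them further on, with the 8 bases of the core in capitals (TGATGNAA or, on the other strand, TTNCATCA).
Aars (upstream match), chr8:111033674-111033793, plus strand: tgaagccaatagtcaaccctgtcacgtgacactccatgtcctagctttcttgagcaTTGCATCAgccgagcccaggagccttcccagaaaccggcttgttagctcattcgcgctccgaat
Aars (downstream match), chr8:111033772-111033891, plus strand: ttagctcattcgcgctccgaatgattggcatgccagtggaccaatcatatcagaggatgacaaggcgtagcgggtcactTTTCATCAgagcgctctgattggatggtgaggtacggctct
Gars, chr6:55037915-55038034, plus strand: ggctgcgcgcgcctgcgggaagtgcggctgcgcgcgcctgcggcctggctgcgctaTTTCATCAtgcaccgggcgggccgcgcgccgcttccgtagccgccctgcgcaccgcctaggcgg
Iars, chr13:49682060-49682179, plus strand: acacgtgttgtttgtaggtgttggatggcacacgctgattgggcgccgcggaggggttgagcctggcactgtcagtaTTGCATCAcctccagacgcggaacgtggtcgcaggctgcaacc
Tars, chr15:11399610-11399729, minus strand: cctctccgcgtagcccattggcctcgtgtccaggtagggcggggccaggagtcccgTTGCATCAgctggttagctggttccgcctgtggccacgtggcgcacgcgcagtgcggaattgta
Yars, chr4:129189833-129189952, plus strand: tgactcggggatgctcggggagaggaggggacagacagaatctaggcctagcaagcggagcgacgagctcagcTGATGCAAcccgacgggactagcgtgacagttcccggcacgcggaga
The match began 112 bases before the annotated start in Aars, 30 before it in Gars and 15 before it in Tars. It lay 9 bases past the start in the other Aars match, 7 past it in Iars and 3 past it in Yars. A match of letters is not evidence of a bound site.

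The authors deposited 1 FPKM value (fragments mapped to a transcript, per kilobase of it and per unit of library size) for each isoform, and these were summed here per gene. Ranges in brackets are the deposited Cufflinks confidence bounds, which cover estimation within 1 library. A log2 ratio compares FPKM plus 1 between the genotype labels of a tissue, Adar1-/- Mavs-/- over Adar1-/-, after a single scaling factor per tissue. With 1 library per group there is no test and no replicate error, and every difference is one between 2 libraries.

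In liver, the reference isoforms of Adar above 0 numbered 3 of 8 in the library labelled Adar1-/- Mavs-/- and 0 of 8 in the library labelled Adar1-/-, and 2 of the 4 Mavs isoforms were above 0 in both. Over all isoforms, assembled ones included, Adar summed to 4.11 FPKM under the Adar1-/- Mavs-/- label and 5.56 FPKM under the Adar1-/- label, and Mavs to 9.96 FPKM under the Adar1-/- Mavs-/- label and 7.26 FPKM under the Adar1-/- label. These levels do not separate the labels, a deleted gene can still give RNA, and the libraries are called by their labels throughout. The 10 hepatocyte markers were all above 1 FPKM in both libraries, at a summed 15309 FPKM in the library labelled Adar1-/- Mavs-/- and 14503 FPKM in the library labelled Adar1-/-. Markers of other cells also differed. The 9 skeletal muscle markers held summed to 10.8 FPKM, with 1 of them at 1 FPKM or more, in the library labelled Adar1-/- Mavs-/-, against 153.8 FPKM and 8 of them in the library labelled Adar1-/-. The 8 macrophage markers summed to 99.9 FPKM under the Adar1-/- Mavs-/- label and 70.1 FPKM under the Adar1-/- label, with Cd68 at 0 under the Adar1-/- label. The 5 erythroid markers held summed to 2314 FPKM under the Adar1-/- Mavs-/- label and 1865 FPKM under the Adar1-/- label. The part of these differences in the results on synthetases was not tested, and fewer cells of a type cannot be told apart from less RNA per cell. Coverage per FPKM follows sequencing depth and was 7.13 in the liver library labelled Adar1-/- Mavs-/- and 8.58 in that labelled Adar1-/-.

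Cytosolic synthetases were well expressed in fetal liver and mitochondrial synthetases were low. The median level of the 20 cytosolic genes was 26.4 FPKM in the library labelled Adar1-/- Mavs-/- and 31.0 FPKM in the library labelled Adar1-/-. The median of the 16 mitochondrial genes was 1.76 FPKM under the Adar1-/- Mavs-/- label and 3.66 FPKM under the Adar1-/- label, which counts genes listed at 0. Over the genes above 0 in each library, the mitochondrial medians were 3.10 FPKM for 12 genes under the Adar1-/- Mavs-/- label and 4.17 FPKM for 13 genes under the Adar1-/- label, and the cytosolic median was 27.2 FPKM for 19 genes under the Adar1-/- Mavs-/- label. All 20 cytosolic genes were above 0 in the library labelled Adar1-/-, the lowest being Cars (cysteine) at 8.02 FPKM. In the library labelled Adar1-/- Mavs-/- 1 of them, Vars (valine), was listed at 0. The 5 highest cytosolic levels in the library labelled Adar1-/- Mavs-/- were those of Eprs, which charges both glutamate and proline tRNA, at 72.3 FPKM, Sars (serine) at 59.3, Nars (asparagine) at 58.2, Dars (aspartate) at 57.5 and Farsb (a subunit of the phenylalanine enzyme) at 52.9 FPKM. In the library labelled Adar1-/- the highest was Sars at 92.1 FPKM, followed by Eprs at 69.3 and Yars at 53.2 FPKM. This order rests on short isoforms with a status of low data, of 637 bases in Sars (52.9 FPKM) and 921 bases in Yars (40.2 FPKM). On the longer isoform Sars had 39.3 FPKM and Yars 13.1 FPKM, both below Eprs. In the library labelled Adar1-/- Mavs-/- the short Sars isoform held 38.4 of the 59.3 FPKM.

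**Figure D1:**
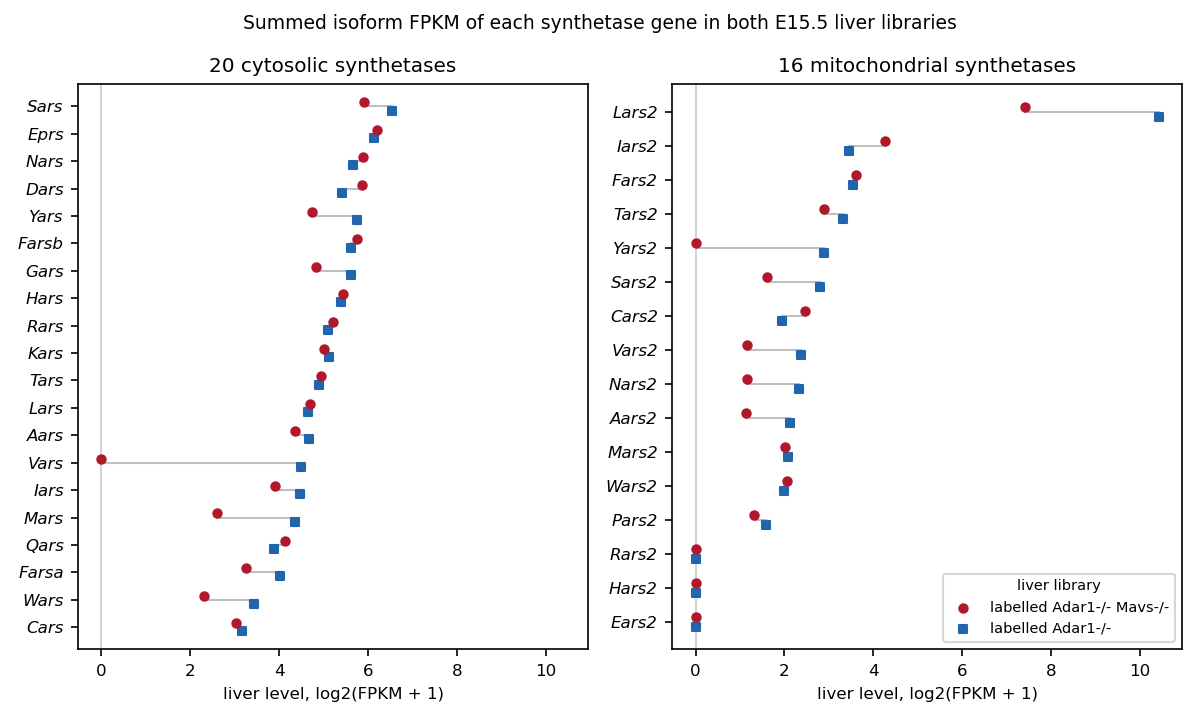
Level of each synthetase in the 2 liver libraries as log2(FPKM + 1), cytosolic genes on the left and mitochondrial genes on the right, with circles for the library labelled Adar1-/- Mavs-/- and squares for that labelled Adar1-/-. The cytosolic medians, 26.4 FPKM under the Adar1-/- Mavs-/- label and 31.0 FPKM under the Adar1-/- label, lie above the mitochondrial ones, 1.76 FPKM under the Adar1-/- Mavs-/- label and 3.66 FPKM under the Adar1-/- label (genes at 0 included), and Lars2 stands apart from the other mitochondrial genes.

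Set against its counterpart for the same amino acid, the cytosolic gene was usually the higher. Of 17 such pairs, 12 had both genes above 0 in both liver libraries. The cytosolic gene was higher in 9 of the 12 in the library labelled Adar1-/- Mavs-/- and in 11 of the 12 in the library labelled Adar1-/-, with median ratios of 3.13 under the Adar1-/- Mavs-/- label and 3.88 under the Adar1-/- label. The order of these medians turned with reference isoforms only (6.69 under the Adar1-/- Mavs-/- label and 4.48 under the Adar1-/- label) and with isoforms weighted by length (3.73 under the Adar1-/- Mavs-/- label and 3.49 under the Adar1-/- label). Eprs over Pars2 gave the widest ratio, 48.9 in the library labelled Adar1-/- Mavs-/- and 34.8 in the library labelled Adar1-/-. Nars over Nars2 was 47.2 under the Adar1-/- Mavs-/- label and 12.4 under the Adar1-/- label, though none of the Nars2 value under the Adar1-/- Mavs-/- label was on a reference isoform. Sars over Sars2 was 29.1 under the Adar1-/- Mavs-/- label and 15.3 under the Adar1-/- label. The pairs with the mitochondrial gene higher were Lars and Lars2 (leucine) in both libraries, at ratios of 0.146 under the Adar1-/- Mavs-/- label and 0.0174 under the Adar1-/- label, and, in the library labelled Adar1-/- Mavs-/- alone, Farsa and Fars2 (phenylalanine) at 0.764 and Iars and Iars2 (isoleucine) at 0.771. These last 2 pairs had ratios of 1.42 and 2.11 in the library labelled Adar1-/-. On their full-length isoforms alone, Iars exceeded Iars2 in the library labelled Adar1-/- Mavs-/- as well, at 11.8 and 8.04 FPKM.

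**Figure D2:**
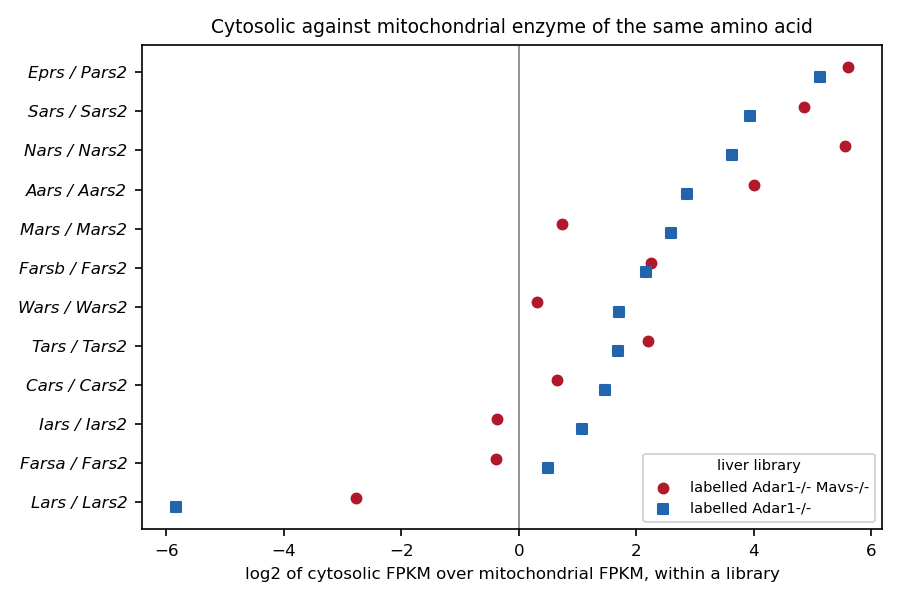
Log2 of the cytosolic over the mitochondrial FPKM for the 12 pairs above 0 in both liver libraries, with circles for the library labelled Adar1-/- Mavs-/- and squares for that labelled Adar1-/-. Most points lie right of 0, and the Lars and Lars2 pair lies left of 0 in both.

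Between the liver libraries, the summed values leaned lower in the one labelled Adar1-/- Mavs-/-. Of the 33 members at 1 FPKM or more in either library, 9 were at least 2-fold lower and 0 at least 2-fold higher, where 9.72% of 13852 genes were that much lower and 6.59% that much higher. The median log2 ratio was -0.27 for the members and -0.12 for all these genes. Among the 31 members above 0 in both libraries, 7 were at least 2-fold lower, where 6.79% of 12807 genes were, and the median was -0.16 against -0.13 for all such genes. In that group of 31, 18 ratios were below 0 and 13 above it. The cytosolic genes accounted for 4 of the 9 and had a median of -0.14, and the 13 mitochondrial genes counted accounted for 5 and had a median of -0.42. Over the genes above 0 in both libraries, 3 of 19 cytosolic genes were that much lower, with a median of -0.12. Of the 12 such mitochondrial genes 4 were, with a median of -0.35. Scaling to TPM in place of the factor shifted the liver scaling by -0.32 on the log2 scale, before the pseudocount was added. Under TPM Dars, Cars2 and Iars2 were the only members left above 0.

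The 4 cytosolic genes that were at least 2-fold lower were Mars, Wars, Yars and Vars, the enzymes for methionine, tryptophan, tyrosine and valine. Yars had 25.5 FPKM (24.4 to 26.7) in the library labelled Adar1-/- Mavs-/- and 53.2 FPKM (51.5 to 54.9) in the library labelled Adar1-/-, a log2 ratio of -1.04. Wars had 3.93 FPKM (3.66 to 4.205) under the Adar1-/- Mavs-/- label and 9.78 FPKM (9.32 to 10.2) under the Adar1-/- label, a ratio of -1.13. Mars had 5.05 FPKM (4.89 to 5.22) under the Adar1-/- Mavs-/- label and 19.5 FPKM (19.0 to 20.1) under the Adar1-/- label, a ratio of -1.77. None of these 3 pairs of bounds overlapped. Vars was listed at 0 in the library labelled Adar1-/- Mavs-/- and had 21.4 FPKM (20.97 to 21.9) in the library labelled Adar1-/-, which gives no fold, since an exact 0 can be a failed estimate.

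At the other end of the cytosolic group, Dars had 57.5 FPKM (56.3 to 58.7) in the library labelled Adar1-/- Mavs-/- and 41.4 FPKM (40.5 to 42.3) in the library labelled Adar1-/-, a log2 ratio of 0.46. Qars (glutamine) had 16.5 FPKM (15.9 to 17.1) under the Adar1-/- Mavs-/- label and 13.8 FPKM (13.3 to 14.3) under the Adar1-/- label, a ratio of 0.24. Nars had 58.2 FPKM (57.1 to 59.3) under the Adar1-/- Mavs-/- label and 49.4 FPKM (48.5 to 50.4) under the Adar1-/- label, a ratio of 0.22. Under TPM the last 2 were at -0.06 and -0.09 and Dars at 0.14. The group thus spread from enzymes somewhat higher in the library labelled Adar1-/- Mavs-/- to enzymes well below the other library, with no common shift.

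Read by the known ATF4 response, the cytosolic genes fell into sets of different medians. The 12 enzymes listed as ATF4-responsive had a median log2 ratio of -0.44, with 3 at least 2-fold lower, and ran from Mars to Nars (0.22). Of all 13852 genes counted, 9.72% were that much lower. On the longest reference isoform alone, a measure described below, 1 of 11 responsive enzymes was, where 9.7% of 9601 genes were. The other 8 cytosolic enzymes had a median of 0.08, or 0.12 without Vars, and, apart from Vars, ran from Farsa (the other phenylalanine subunit, -0.77) to Dars. A median near the responsive one was not particular to that set. It was -0.42 for the 13 mitochondrial genes counted, or -0.35 over the 12 above 0 in both libraries. For the 12 cytosolic enzymes outside the multi-synthetase complex it was -0.47, or -0.32 without Vars. Most of these (Aars, Cars, Gars, Nars, Sars, Tars, Wars and Yars) are also on the responsive list. The median of the enzymes outside the complex is therefore not independent of the responsive one. After Mars, Wars and Yars, the lowest responsive enzymes were Gars at -0.81, with 27.2 FPKM in the library labelled Adar1-/- Mavs-/- and 48.1 FPKM in the library labelled Adar1-/-, Sars at -0.63, Iars at -0.57 and Aars at -0.32. Eprs (0.05), Lars (0.04) and Tars (0.03) were close to level, though Lars carried a failed status in the library labelled Adar1-/-, with a lower bound of 0. With isoforms of status OK alone, which left 9 and 5 genes, the order turned, to medians of 0.030 for the responsive and -0.90 for the other genes. The list was drawn up with earlier results of these data known and gives no independent support. By the promoter core, the 5 cytosolic genes with a match had a median of -0.57, with 4 of 5 below 0. The 8 with a window and no match had a median of -0.03, with 4 of 8 below 0. The median of all genes was itself below 0, at -0.12. Tars (0.03) has a match and is level between the libraries, while Mars and Sars have none and are among the lower genes.

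The 8 enzymes of the multi-synthetase complex (Dars, Eprs, Iars, Kars, Lars, Mars, Qars and Rars) had a median of 0.05, against -0.47 for the 12 free cytosolic enzymes (-0.32 without Vars), and 1 of the 8, Mars, was at least 2-fold lower. The scaffold gene Aimp1 had 24.7 FPKM under the Adar1-/- Mavs-/- label and 19.9 FPKM under the Adar1-/- label, a ratio of 0.29. Eef1e1 had 41.8 FPKM under the Adar1-/- Mavs-/- label and 29.5 FPKM under the Adar1-/- label, a ratio of 0.49. Aimp2 had 2.26 FPKM in the library labelled Adar1-/- Mavs-/- and was listed at 0 in the library labelled Adar1-/-. By the structural class of the catalytic domain, 7 of the 16 class I genes counted reached a 2-fold lower value and their median was -0.36 (5 and -0.12 over the 14 above 0 in both libraries). In class II 2 of 16 did, and the median was -0.29. Of all 13852 genes counted, 9.72% were that much lower. On the longest reference isoform alone, a measure described below, 1 of 11 class I genes and 0 of 14 class II genes were that much lower. Their medians were -0.29 for class I and -0.13 for class II, and 9.7% of 9601 genes were that much lower. The class counts thus differed mainly on the sums.

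The 12 mitochondrial enzymes above 0 in both libraries had log2 ratios from -3.02 to 0.79, against -1.77 to 0.46 for the 19 such cytosolic genes. Without Lars2, whose level is uncertain, the mitochondrial range was -1.22 to 0.79. Of the 16 genes, Ears2, Hars2 and Rars2 were listed at 0 in both liver libraries, and Yars2 was listed at 0 in the library labelled Adar1-/- Mavs-/- and had 6.37 FPKM (5.92 to 6.82) in the library labelled Adar1-/-. Hars2 overlaps its neighbour Hars, a gene at 42.3 FPKM under the Adar1-/- Mavs-/- label and 41.0 FPKM under the Adar1-/- label, by 198 bases. Vars2 had 1.23 FPKM (1.10 to 1.36) in the library labelled Adar1-/- Mavs-/- and 4.17 FPKM (3.88 to 4.46) in the library labelled Adar1-/-, a log2 ratio of -1.22. Sars2 had 2.04 FPKM (1.67 to 2.41) under the Adar1-/- Mavs-/- label and 6.02 FPKM (5.34 to 6.70) under the Adar1-/- label, a ratio of -1.21. Nars2 had 1.23 FPKM (1.15 to 1.31) under the Adar1-/- Mavs-/- label and 3.98 FPKM (3.79 to 4.18) under the Adar1-/- label, a ratio of -1.16. For all 3 the bounds did not overlap, and the lower values were those of the library labelled Adar1-/- Mavs-/-. In that library the whole Nars2 value was on 1 assembled isoform with a status of low data. It ran from 104207342 to 104218836 on chromosome 7 (mm9), past the end of the reference gene at 104213271. Under the Adar1-/- label 2.24 FPKM of the Nars2 value was on a reference isoform, so the Nars2 values had no isoform in common. The highest ratio was that of Iars2, the isoleucine enzyme, with 18.2 FPKM (17.5 to 18.8) under the Adar1-/- Mavs-/- label and 9.999 FPKM (9.71 to 10.3) under the Adar1-/- label, at 0.79. Cars2 (cysteine) followed with 4.52 FPKM (4.12 to 4.93) under the Adar1-/- Mavs-/- label and 2.88 FPKM (2.60 to 3.16) under the Adar1-/- label, at 0.50. Wars2 (tryptophan) had 3.15 FPKM (2.56 to 3.74) under the Adar1-/- Mavs-/- label and 2.98 FPKM (2.53 to 3.43) under the Adar1-/- label, a ratio of 0.06, with bounds that overlapped.

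Lars2, the mitochondrial leucine enzyme, had the highest level of any member, 170.1 FPKM (167.8 to 172.4) in the library labelled Adar1-/- Mavs-/- and 1376 FPKM (1369 to 1383) in the library labelled Adar1-/-, a log2 ratio of -3.02. None of this was assigned to a reference isoform. In each library it came from 1 assembled isoform at the 3' end of the gene on chromosome 9 (mm9), from 123368528 to 123372220 in the library labelled Adar1-/- Mavs-/- and from 123370444 to 123371907 in the library labelled Adar1-/-. The reference gene spans 123276058 to 123371782. The full-length Lars2 transcript shares a stretch of 72 bases, at 98.6% identity, with Gm15564, a gene on chromosome 16 at 3567 FPKM under the Adar1-/- Mavs-/- label and 3749 FPKM under the Adar1-/- label. That stretch ends 545 bases before the 3' end of the 3894-base transcript. None of the Gm15564 value in either library was on a reference isoform with a GENCODE M21 symbol. The transcript also shares 97 bases, at 94.8% identity, with AA474408, which was listed at 0 in both libraries. The sources used here do not say how reads were divided between such copies, so the level of Lars2 as an enzyme transcript is uncertain in both libraries.

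Several of these differences came from different isoforms in the 2 libraries. In 9 members, a single reference isoform carried at least 90% of the value in both liver libraries: Aars, Dars, Eprs, Gars, Hars, Lars, Nars, Tars and Fars2. None of the 9 reached 2-fold, and their ratios ran from -0.81 (Gars) to 0.46 (Dars), with a median of 0.04. All 7 members above 0 in both that were at least 2-fold lower were among the other 22. A further measure was therefore taken from the longest reference isoform above 0 in both libraries, which existed for 27 members and spanned at least 88.7% of the gene. Of the 26 at 1 FPKM or more in either library, 1 was at least 2-fold lower and 0 higher, where 9.7% of 9601 genes were that much lower and 1.83% that much higher. The member was Yars, at 5.42 FPKM (5.07 to 5.77) in the library labelled Adar1-/- Mavs-/- and 13.1 FPKM (12.6 to 13.6) in the library labelled Adar1-/-, a ratio of -1.14. This isoform has a status of low data in both libraries and no GENCODE M21 symbol. The summed Yars ratio was short of 2-fold with it and other such isoforms left out (-0.98), with an upper quartile factor (-0.99) and with length weighting (-0.35).

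**Figure D3:**
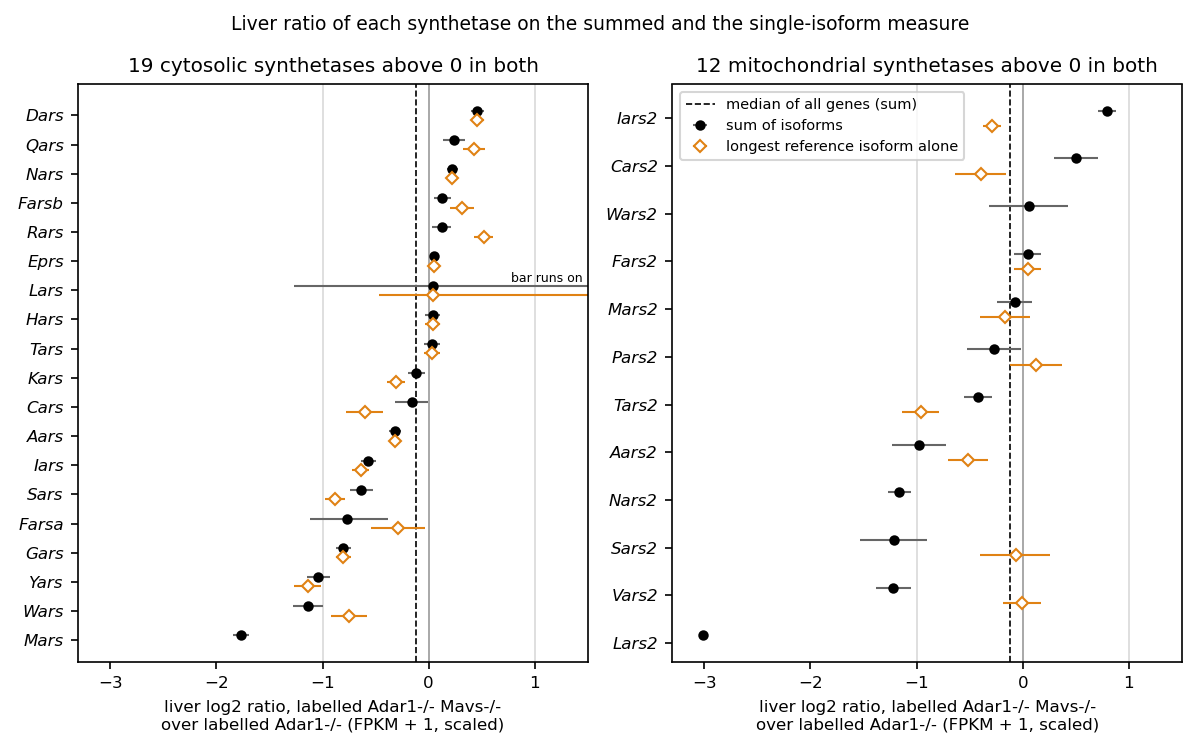
Liver log2 ratio of each member above 0 in both libraries, from the sum of isoforms (filled circles) and from the longest reference isoform alone (open diamonds), with bars for the range that the Cufflinks bounds of both libraries allow and a dashed line at the median of all genes, -0.12. Yars, Gars, Sars and Iars lie left of that line on both measures, while Sars2, Vars2, Iars2 and Cars2 move, and the bars of Lars run past the axis.

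On the single isoform the division among cytosolic enzymes was wider and the mitochondrial one narrower. The 11 ATF4-responsive enzymes with such an isoform had a median of -0.60, the other 7 cytosolic enzymes a median of 0.31, and the 8 mitochondrial genes a median of -0.23, against -0.16 for all 9601 genes. In the responsive set 7 of 11 were below 0, and in the other cytosolic set 2 of 7, where 5809 of all 9601 genes were. The 7 of 11 is thus near the share of all genes. After Yars the lowest responsive enzymes were Sars at -0.88, with 20.9 FPKM in the library labelled Adar1-/- Mavs-/- and 39.3 FPKM in the library labelled Adar1-/-, Gars at -0.81 and Wars at -0.75, the last with 2.87 FPKM under the Adar1-/- Mavs-/- label and 5.48 FPKM under the Adar1-/- label. Iars followed at -0.64, with 11.8 FPKM under the Adar1-/- Mavs-/- label and 18.9 FPKM under the Adar1-/- label, and Cars at -0.60, with 4.96 FPKM under the Adar1-/- Mavs-/- label and 8.02 FPKM under the Adar1-/- label. The highest of the other cytosolic enzymes were Rars (arginine) at 0.52, with 36.3 FPKM under the Adar1-/- Mavs-/- label and 25.0 FPKM under the Adar1-/- label, and Dars at 0.46. Qars was at 0.43, with 16.5 FPKM under the Adar1-/- Mavs-/- label and 12.0 FPKM under the Adar1-/- label. These isoforms of Sars, Gars, Wars, Iars, Rars and Dars had a status of low data in a single library. Those of Yars and Qars had it in both libraries, and that of Cars in neither. On sums of isoforms of status OK alone the order turned, to medians of 0.030 for the responsive and -0.90 for the other cytosolic genes. Among the mitochondrial genes Sars2 (-0.07) and Vars2 (-0.01) were close to 0 on this measure, and Tars2 (threonine) was the lowest at -0.96, with 3.30 FPKM under the Adar1-/- Mavs-/- label and 7.35 FPKM under the Adar1-/- label. The sign turned for 3 members, Cars2 (-0.39), Iars2 (-0.29) and Pars2 (0.13).

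Iars2 shows how a sum can turn. Its full-length isoform had 8.04 FPKM (7.75 to 8.33) in the library labelled Adar1-/- Mavs-/- and 9.999 FPKM (9.71 to 10.3) in the library labelled Adar1-/-. A reference isoform of 1866 bases, lying inside the last part of the gene, had 10.1 FPKM in the library labelled Adar1-/- Mavs-/- and was at 0 in the other, and it made the sum higher. The Mars values in liver had no isoform in common. In the library labelled Adar1-/- Mavs-/- the whole 5.05 FPKM was on 1 assembled isoform of 10059 bases, from 126727603 to 126745028 on chromosome 10 (mm9), which runs across the neighbouring Ddit3. In the library labelled Adar1-/- the 19.5 FPKM was on the reference isoform of 2939 bases, from 126733277 to 126748842. Weighting isoforms by their length brought the Mars ratio to -0.15. Ddit3, which encodes the stress transcription factor CHOP and overlaps Mars by 68 bases, was listed at 0 in the library labelled Adar1-/- Mavs-/- and had 5.97 FPKM in the library labelled Adar1-/-, none of it on a reference isoform, so the reads of this pair of genes were not clearly separated.

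**Figure D4:**
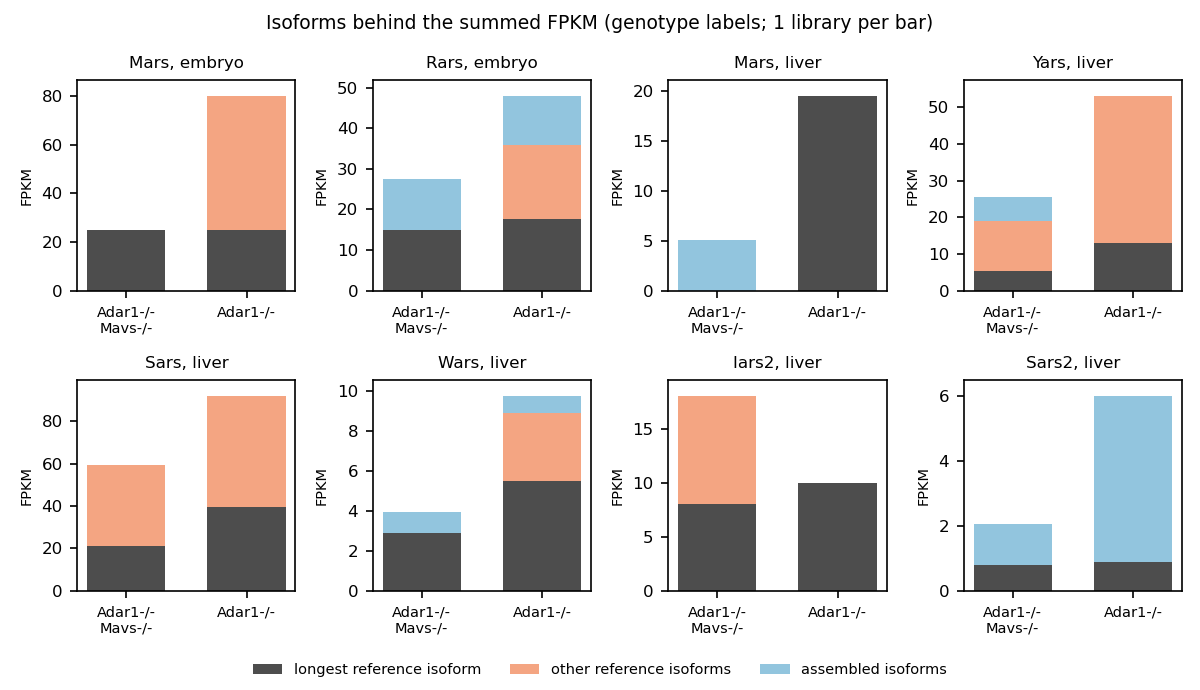
Stacked FPKM of the longest reference isoform, other reference isoforms and assembled isoforms, 1 bar per library, with the library labelled Adar1-/- Mavs-/- left of that labelled Adar1-/-. The dark segments of Mars in embryos stand at 25.1 FPKM under the Adar1-/- Mavs-/- label and 24.9 FPKM under the Adar1-/- label although the whole bars differ, and those of Yars, Sars and Wars in liver differ.

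In embryos, the tables held 2 members in both libraries, Mars and Rars, both of the multi-synthetase complex. Mars had 25.1 FPKM (24.3 to 25.9) in the embryo library labelled Adar1-/- Mavs-/- and 80.3 FPKM (74.9 to 85.7) in the embryo library labelled Adar1-/-, a log2 ratio of -1.23, where 9.8% of 1918 genes were at least 2-fold lower. Its full-length isoform had 25.1 FPKM (24.3 to 25.9) under the Adar1-/- Mavs-/- label and 24.9 FPKM (23.9 to 25.9) under the Adar1-/- label, a ratio of 0.42 after the embryo scaling factor of 1.34. The rest of the Adar1-/- value, 55.4 FPKM, was on a reference isoform of 467 bases with a status of low data. Rars had 27.4 FPKM (26.0 to 28.8) under the Adar1-/- Mavs-/- label and 48.0 FPKM (29.4 to 66.7) under the Adar1-/- label, a ratio of -0.38, and its full-length isoform had 14.9 FPKM (14.1 to 15.7) under the Adar1-/- Mavs-/- label and 17.5 FPKM (13.4 to 21.7) under the Adar1-/- label, a ratio of 0.17. After scaling, the bounds of Rars overlapped between the libraries, and those of the Mars sum did not. The full-length ratios depend on the embryo factor: from FPKM as deposited they were 0.014 for Mars and -0.22 for Rars, and under TPM -0.50 for Mars and -0.75 for Rars. Wars and Fars2 lie in the stretch held for the embryo library labelled Adar1-/- Mavs-/- alone, at 27.6 FPKM and 8.17 FPKM. Set beside the same label in liver, Wars had 3.93 FPKM and Fars2 had 11.2 FPKM, but tissue, age and strain label differ together.

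Genes that work beside the synthetases in liver gave a graded picture. The 12 genes listed for the integrated stress response, the pathway that ends in ATF4, had a median log2 ratio of -1.40. Of the 12, 7 were at least 2-fold lower, where 9.72% of 13852 genes were. Over the 10 above 0 in both libraries 5 were, where 6.79% of 12807 genes were, and the median was -1.06. Of these, Trib3, a pseudokinase that restrains ATF4, had 0.209 FPKM in the library labelled Adar1-/- Mavs-/- and 8.35 FPKM in the library labelled Adar1-/-, a ratio of -2.95. Nupr1 (-1.91), Chac1 (-1.69), Sesn2 (-1.64) and Atf5 (-1.17) were also lower, and for Cebpb and Ddit3 the library labelled Adar1-/- Mavs-/- lists 0. Atf4 itself was the highest of the list at -0.34, with 100.5 FPKM under the Adar1-/- Mavs-/- label and 127.2 FPKM under the Adar1-/- label. The 10 amino acid transporters counted had a median of -0.53, from Slc6a9 (glycine) at -2.15 to Slc43a1 at -0.26, and Slc7a1 (-1.26) and Slc3a2 (-1.23) were the others past 2-fold. The 10 amino acid synthesis enzymes counted had a median of -0.48, with Shmt2 (-1.63), Got1 (-1.42) and Aldh18a1 (-1.34) at least 2-fold lower and Phgdh the highest at 0.42. Asns, asparagine synthetase and a classical ATF4 target, had 109.8 FPKM under the Adar1-/- Mavs-/- label and 95.2 FPKM under the Adar1-/- label, a ratio of 0.20. All 12 stress response genes, Cebpb and Ddit3 through a listed 0, and all 10 transporters counted were below 0. The ATF4-responsive synthetases included 4 above 0, and the median of all genes was itself -0.12.

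**Figure D5:**
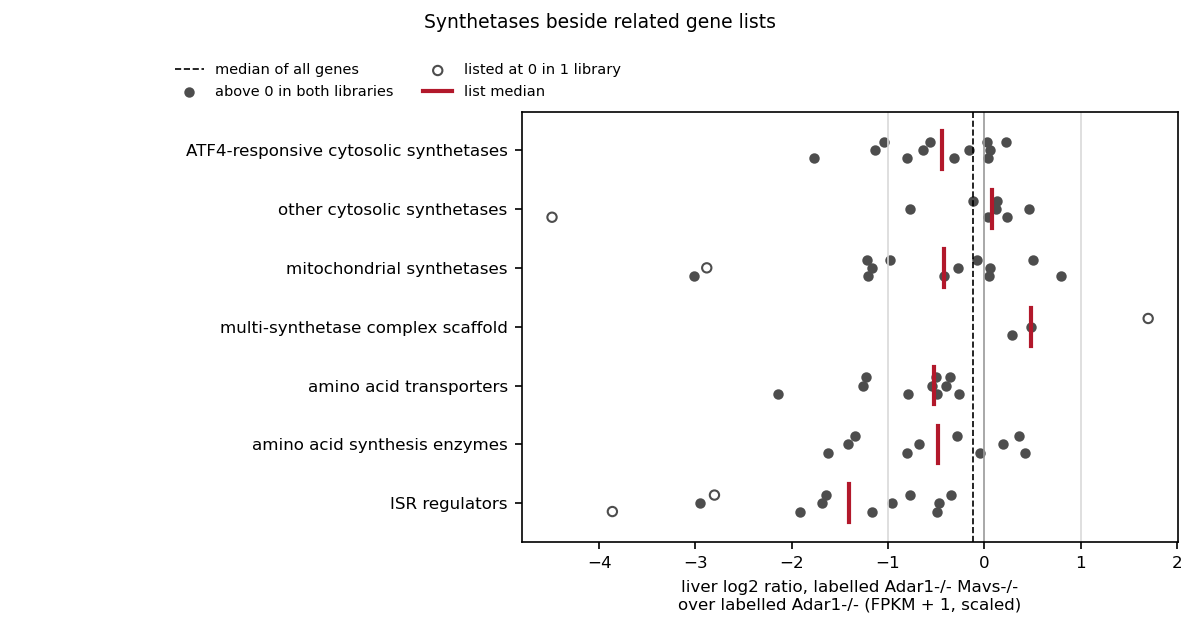
Liver log2 ratios of the genes counted in each list, with filled points for genes above 0 in both libraries, open points for genes listed at 0 in 1 library, a red bar at the list median and a dashed line at the median of all genes. The stress response genes (ISR regulators in the figure) have the lowest median, -1.40 (-1.06 over those above 0 in both libraries). The ATF4-responsive synthetases (-0.44) lie near the mitochondrial synthetases (-0.42, or -0.35 over those above 0 in both libraries) and the transporters (-0.53).

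The factors that take up or handle charged tRNA did not move as a block. Of the cytosolic elongation factors, Eef1g (-1.51) and Eef2 (-1.22) were at least 2-fold lower, while Eef1d (-0.07) was the highest and Eef1a1, which carries charged tRNA to the ribosome, was at -0.10. Among 10 mitochondrial translation factors the median was 0.03. Gfm2, a recycling factor, was 2-fold higher at 1.004, Tsfm had 5.51 FPKM in the library labelled Adar1-/- Mavs-/- and was listed at 0 in the other library, and Tufm was listed at 0 in the library labelled Adar1-/- Mavs-/- and had 7.49 FPKM in the library labelled Adar1-/-. The 4 genes of tRNA export and 3' end maturation had a median of 0.21, from Xpot (-0.26) to Trnt1, which adds the CCA end, at 0.66, but on the longest reference isoform the median was -0.39, with 3 of the 4 below 0. Of the 4 editing factors, Aarsd1 was 2-fold lower at -1.18 and Dtd1 the highest at 0.44. The 3 subunits held of the mitochondrial amidotransferase that makes glutaminyl-tRNA ran from Gatb at -0.20 to Qrsl1 at 0.51.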

How the data were processed

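Total RNA of 4 mouse libraries, 1 per group, was analysed. The deposited values are FPKM per isoform, with lower and upper bounds and a status, per the file headers. The deposited coverage, a signal per isoform, scales with FPKM by 1 constant per library. The mm9 build, TopHat 1.4.0, Cufflinks 2.2.1 and edgeR 3.4.2 appear in the tool list, per the submitters' processing notes, which gives no roles. Read totals, strandedness, the assembly options and the treatment of multiply mapped reads are not stated there.

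Isoforms were given symbols from GENCODE M21 by transcript identifier. An isoform without a symbol was given that of the reference isoforms it overlapped best within its Cufflinks gene. FPKM were summed per symbol, and bounds were combined as the root of summed squares. FPKM of the library labelled Adar1-/- Mavs-/- were multiplied by 1 factor per tissue, chosen so that genes of 5 FPKM or more in both libraries had a median log2 ratio of 0. It was 0.995 in liver (6891 genes) and 1.34 in embryos (972 genes). A pseudocount of 1 was added, which understates differences of low genes. Counts cover genes of 1 FPKM or more in at least 1 of the 2 libraries, and 2-fold means a log2 ratio of 1 or more, up or down. Low values limit precision more than high ones. A gene listed at 0 in 1 library has no fold printed but is counted among the 2-fold genes and in list medians through the pseudocount. Medians without such genes are given in the Results where they differ, and are not repeated in the closing section.

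The longest reference isoform was the one of longest genomic span above 0 in both libraries, a measure chosen after the data were seen. Shared sequence of Lars2 was searched with blastn in GENCODE M21 transcripts. The embryo tables hold a part of the genome, so 32 members were not analysed there. The members and lists were chosen with earlier results of these data known. All 36 members could be named; full values were given for those at least 2-fold apart in liver, the 3 highest and 3 lowest of each compartment and those in both embryo tables, and from each other list the genes at least 2-fold apart, the highest and the lowest. Calculations used Python 3.11.15, pandas 2.3.3, numpy 2.4.6 and matplotlib 3.10.9, and were tested on simulated data. The alternatives tried are given in the closing section.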

Additional observations from a re-analysis of the deposited data

Results flagged for a closer look

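Rars had a log2 ratio of -0.38 in embryos and 0.12 in liver, of opposite sign in the 2 tissues under the same contrast. The difference was not tested, since each group has 1 library, and age and strain label differ with the tissue. The full-length Rars isoform had ratios of 0.17 in embryos, with bounds of -0.19 to 0.61, and 0.52 in liver. From FPKM as deposited they were -0.22 in embryos and 0.52 in liver, and under TPM -0.75 in embryos and 0.20 in liver.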

How the results depend on the processing

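No paired analysis was possible because each group has 1 library. Every ratio rests on 1 library against 1, so no replicate could be left out. The main medians in liver were -0.14 for cytosolic, -0.42 for mitochondrial, -0.44 for ATF4-responsive and 0.08 for other cytosolic genes, with 9 members at least 2-fold lower and 0 higher. Under TPM the medians were -0.42, -0.68, -0.73 and -0.23 in that order, where the scaling itself shifted by -0.32 before the pseudocount was added. With reference isoforms only, the mitochondrial median was -0.087, the ATF4-responsive median -0.62 and the median cytosolic over mitochondrial ratio 6.69 in the library labelled Adar1-/- Mavs-/- and 4.48 in that labelled Adar1-/-, the other order from the main values. With isoforms of status OK only, which left 25 members, the mitochondrial median was -0.98, the ATF4-responsive median 0.030 and the other cytosolic median -0.90, and 4 members were at least 2-fold higher. The following alternatives were chosen after seeing the data. With reference isoforms that lack a GENCODE M21 symbol left out, 8 members were at least 2-fold lower. With all isoforms kept and only members above 0 in both libraries counted, 7 were. With isoforms weighted by length, that order turned as well (3.73 under the Adar1-/- Mavs-/- label and 3.49 under the Adar1-/- label), the cytosolic median was -0.013, the ATF4-responsive median -0.22 and 5 members were at least 2-fold lower. With the longest reference isoform alone, the mitochondrial median was -0.23, the ATF4-responsive median -0.60, the other cytosolic median 0.31 and 1 member was at least 2-fold lower. The embryo ratio of Mars, -1.23 as summed, was 0.39 with status OK only, 0.017 with length weighting and 0.42 on the longest reference isoform. From FPKM as deposited it was -1.64 and under TPM -2.19, and that of Rars, -0.38 as summed, was -0.79 and -1.32. The embryo scaling itself shifted by -0.42 and -0.94 on the log2 scale, before the pseudocount was added. For single members, 193 alternative values stayed within the bounds of the main value, 82 moved beyond them and 3, all of Mars in embryos, turned a value of at least 2-fold to the other sign. Counting values of any size, 26 of the 278 changed sign, 10 of them under TPM. The others were those of 9 members and reached 2.21 for Iars with status OK only, and 0.54 for Cars and -0.86 for Wars2 with length weighting. The causes were not tested. The order of the ATF4-responsive and other cytosolic medians held under each alternative except status OK only.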
